A study of Mus musculus with 8 samples.

Results

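The mitochondrial genome of mouse CD8+ T cells is copied, transcribed, processed and translated by proteins that the nucleus encodes. The mRNAs of 42 such genes were examined, chosen by symbol from their known functions, with earlier results of these data known. All 42 symbols matched 1 Ensembl gene each among the 55536 genes counted, and 40 of them were among the 11189 genes that passed the filter on low counts.

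RNA came from OT-1 T cells, whose receptor transgene recognises SIINFEKL, a peptide of ovalbumin, and which the methods of the study place on a Rag1-KO C57BL/6 background. Lymph node cells of mice aged 5-12 weeks, of either sex, were stimulated for 2 days with 100 nM peptide and then kept for 2 days in 20 ng/ml IL-2. During the IL-2 phase, 4 cultures received 10 µM GC7, a spermidine analogue that inhibits deoxyhypusine synthase and so the maturation of the translation factor eIF5a, and 4 received the same volume of acetic acid vehicle (Mock). Both groups share the receptor transgene, the peptide, the IL-2 and the time in culture, and the study describes GC7 as also having effects that do not depend on eIF5a. The 4 libraries a group are described as biological replicates, with no statement of whether each came from a separate animal, so p-values measure the spread between these cultures.

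Mitochondrial DNA is a small circle that is transcribed almost in full from both strands into long precursors. The mitochondrial RNA polymerase POLRMT starts with TFAM and TFB2M and continues with TEFM, the tRNAs that lie between the genes are cut out by RNase P and ELAC2, and the freed RNAs are modified, stabilised, translated or degraded inside the organelle. Replication uses a separate DNA polymerase, POLG, with the helicase TWNK and a single-strand binding protein. Activated T cells are known to enlarge their mitochondria as they grow and divide.

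The 8 libraries held 17528776 to 25284730 counts each, and every tested gene exceeded 3 CPM (counts scaled to the size of the library) in at least 4 of them. Levels are given as CPM after scaling with TMM factors, and changes as log2 fold changes of GC7 against Mock from edgeR's quasi-likelihood F test. A gene passed the test at a Benjamini-Hochberg false discovery rate (FDR) under 0.01 over all genes tested. Mock 2 and GC7 3 differed most from the other libraries of their group, so the main counts are also given without them. Of 11 CD8 T cell markers, all were tested, 7 fell and only Cd8a rose (63.6% and 9.09%, beside 23.5% and 23.0% of all genes tested). Prf1 was at a log2 fold change of -1.46, Lck at -0.64 and Cd8a at 0.48, with Cd8a at 676 CPM or more in every library. The summed level of the 11 markers was 7799 to 9196 CPM in Mock and 5345 to 6911 CPM in GC7. Ms4a1 and Pax5, which define B cells, were at 0 in every library. The sum of 6 myeloid markers was 8.39 to 11.02 CPM in Mock and 5.70 to 9.71 CPM in GC7, most of it from Cd68, with Csf1r, Adgre1 and Cd14 at 0.11 CPM or less. The sum of 4 NK cell markers was 1.99 to 2.65 CPM in Mock and 2.05 to 3.21 CPM in GC7, most of it from Eomes. The sum of 3 CD4 T cell markers was 92.6 to 96.9 CPM in Mock and 75.2 to 84.5 CPM in GC7, nearly all of it from Zbtb7b, which fell (-0.21), with Cd4 at 0.41 CPM or less. The summed level of 5 B cell markers was 7.13 to 10.1 CPM in Mock and 4.72 to 6.11 CPM in GC7, most of it from Cd79b, which fell (-0.76). The part of these marker levels in the values of the 42 genes was not tested. In bulk RNA, fewer cells of a type and less RNA per cell cannot be told apart.

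Promoters are shown first because 20 of the 39 members with a RefSeq promoter window carried the same short ETS core. These letters are shared by the sites of ETS family proteins and point to no single protein. Each window spans 250 bases before to 50 bases after the RefSeq start (GRCm38.p6), which can differ from the Ensembl one, and Mterf3, Mtif3 and Mtpap have none. The 100 bases before the start are printed 5′ to 3′ on the strand of the gene, with matches to CCGGAAG, or to its reverse complement CTTCCGG, in capitals. The genes shown are both members that fell, 3 that rose and 2 that did not pass the test. They do not stand for all members, as the 2 higher members whose windows hold the core, Polrmt and Tefm, are among them. The same stretches of Fastkd1 and Nsun4, which also rose, hold no match and are not printed.

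Polg (chr7:79466274-79466373, minus strand): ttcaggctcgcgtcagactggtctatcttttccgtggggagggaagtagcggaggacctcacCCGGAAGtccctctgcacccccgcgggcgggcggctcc

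Fastk (chr5:24445236-24445335, minus strand): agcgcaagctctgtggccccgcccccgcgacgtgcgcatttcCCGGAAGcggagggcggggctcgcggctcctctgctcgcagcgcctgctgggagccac

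Polrmt (chr10:79746582-79746681, minus strand): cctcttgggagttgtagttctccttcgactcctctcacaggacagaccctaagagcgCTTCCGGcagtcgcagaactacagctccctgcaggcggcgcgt

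Tefm (chr11:80142154-80142253, minus strand): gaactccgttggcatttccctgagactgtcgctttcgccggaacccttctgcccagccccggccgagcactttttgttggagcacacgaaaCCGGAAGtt

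Supv3l1 (chr10:62449739-62449838, minus strand): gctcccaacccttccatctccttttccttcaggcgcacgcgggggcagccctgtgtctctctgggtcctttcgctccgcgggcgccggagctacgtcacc

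Tfam (chr10:71238045-71238144, minus strand): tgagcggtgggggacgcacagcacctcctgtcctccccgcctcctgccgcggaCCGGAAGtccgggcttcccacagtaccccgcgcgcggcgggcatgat

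Ssbp1 (chr6:40471368-40471467, plus strand): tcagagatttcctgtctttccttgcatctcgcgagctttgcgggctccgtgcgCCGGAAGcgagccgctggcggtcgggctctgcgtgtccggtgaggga

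The ETS core was in the windows of 51.3% of the 39 members that have one, and these include 2 members that were not tested. It was in 22.8% of 8331 tested genes with a window and 9.93% of all 27025 genes with one. Both members that fell carried it, as did 2 of the 7 that rose and have a window and 14 of the 28 that did not pass the test, and both members that were not tested. In these lines it lies before the RefSeq starts of Polg, Fastk, Polrmt, Tefm, Tfam and Ssbp1, and Supv3l1 has no match. The lines of Tfam and Ssbp1 lie wholly inside the Ensembl spans of these genes, and those of Polg, Fastk and Tefm partly. The core of the NRF1 site, GCATGCG or its reverse complement CGCATGC, was found in 4 of the 39 members (10.3%) and in 7.93% of tested genes. The E-box CACGTG, which reads the same on both strands, was in 3 members (7.69%) and in 12.2% of tested genes. With only the 250 bases before the start, the ETS core was in 15 members (38.5%) and in 17.7% of tested genes. A match is a match of letters in the window and shows no binding.

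Of the 40 tested members, 2 were lower and 8 were higher in GC7-treated cells, and none changed by more than 2-fold, as 5.31% and 3.17% of all genes tested did in these directions (8.48% in all). Polg and Fastk fell, and Fastkd1, Nsun4, Supv3l1, Mrm3, Tefm, Mterf3, Fastkd2 and Polrmt rose. The lower calls are 5% of the tested members, beside 23.5% of all genes tested, and the higher calls are 20%, beside 23.0%. In either direction, 25% of the members and 46.6% of all genes tested passed. The median log2 fold change was 0.06 over the 40 members and 0.02 over all genes tested, and 28 members lay above 0 and 12 below. The median standard error of the log2 fold change was 0.0840 for the members and 0.0896 for all genes tested. All 4 GC7 libraries were above all 4 Mock libraries for 12 members and below them for 5, where these patterns held for 28.1% and 27.5% of all genes tested. For 39 of the 40 members, the exception being Fastkd1, the 95% interval of the change lay within 2-fold in either direction, and this includes all 30 members that did not pass the test.

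The calls were fewer when some libraries were left out. The 8 higher calls became 5 without Mock 3, without Mock 4 or without GC7 4, and in each case Polrmt, Tefm and Mrm3 were the calls lost. Over all 11189 genes tested, the higher calls also went from 2579 to 2217, 2138 and 2096 in these fits, in that order. Without both Mock 2 and GC7 3, 3 members were lower and 12 higher, the shares for all genes tested being 28.1% and 28.8%. At an FDR under 0.05, 5 members were lower and 11 higher, beside 29.0% and 30.4% of all genes tested. DESeq2 called 4 members lower and 10 higher at an FDR under 0.01, beside 25.6% and 25.1% of all genes it tested, and the lower ones were Fastk, Polg, Polg2 and Tufm.

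**Figure D1:**
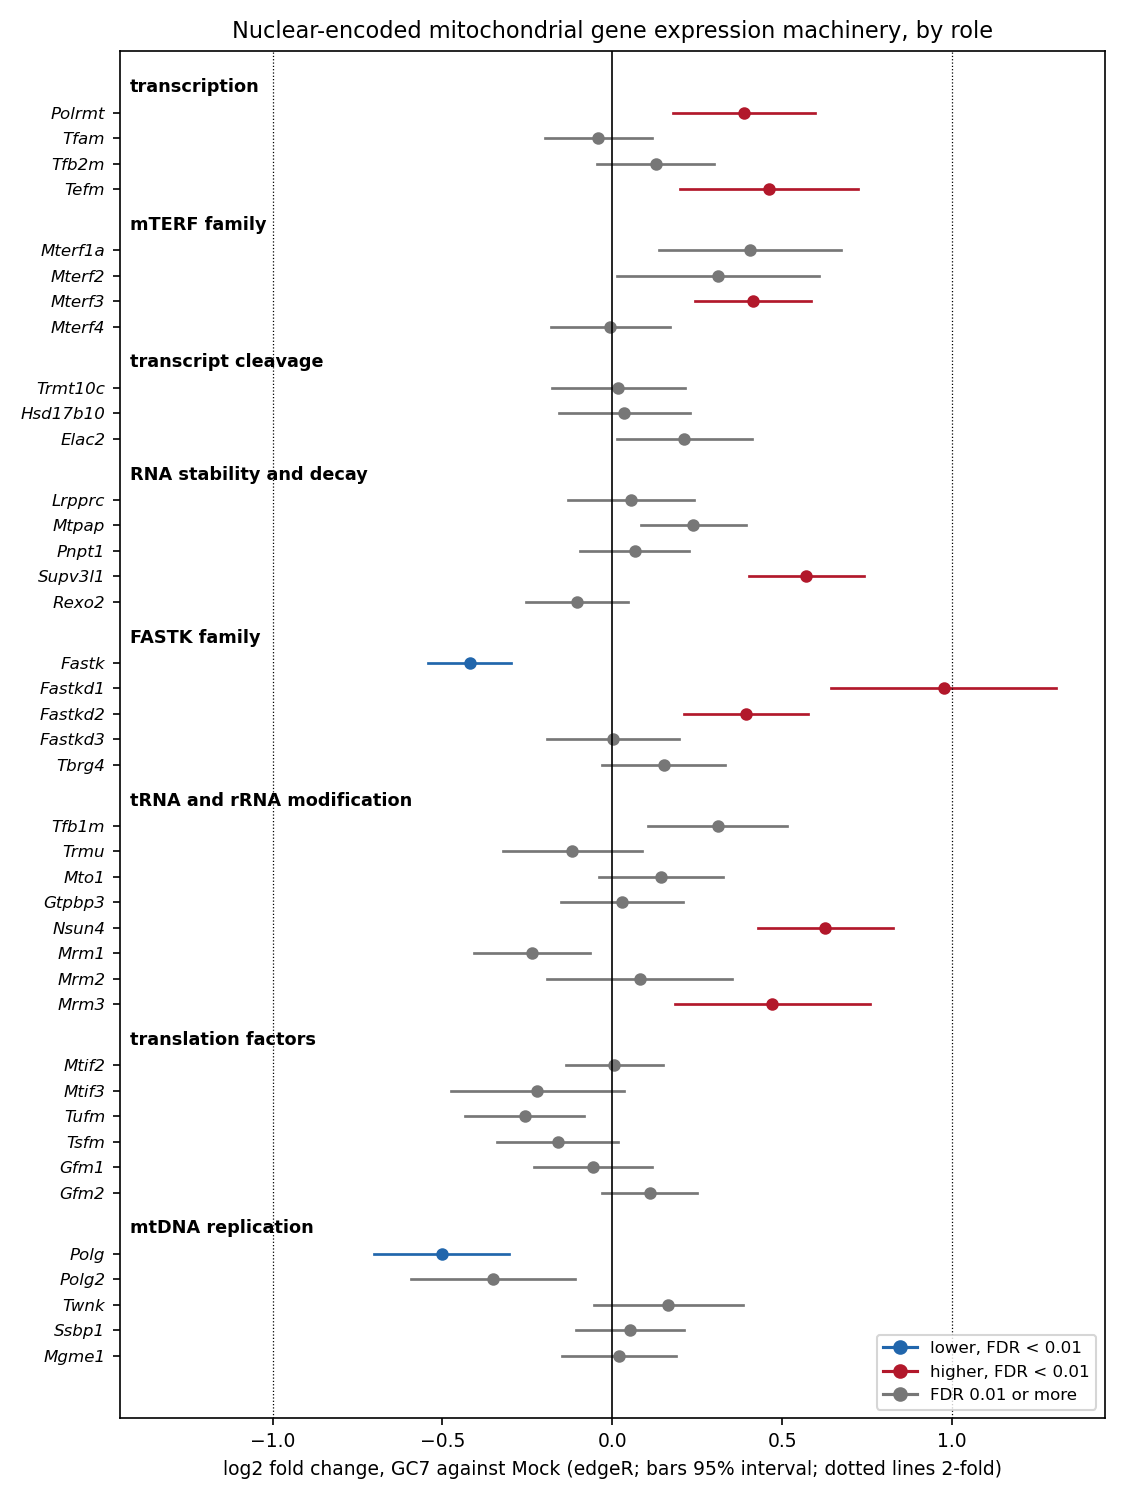
Log2 fold change of GC7 against Mock (x axis) for the 40 tested members, grouped by role, with 95% intervals from edgeR and 4 libraries a group. The 2 lower members are blue, the 8 higher ones red and the others grey, and all points lie between the dotted lines that mark 2-fold.

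Summed over all 42 genes, the mRNAs of the machinery took 1164 to 1212 TMM-scaled CPM in Mock and 1151 to 1222 in GC7 libraries. The ranges overlapped on this scale, whose factors averaged 0.968 in Mock and 1.03 in GC7. With libraries scaled by their totals, the median log2 fold change was 0.15 for the tested members and 0.11 for all genes. The 13 mitochondrially encoded mRNAs made up 1.71% ± 0.0451 of unscaled counts in Mock and 0.135% ± 0.0119 in GC7 (SD, n = 4). All 13 fell, by log2 fold changes from -5.27 for mt-Co1 to -1.58 for mt-Nd3. Of all genes tested, 23.5% were lower and 5.31% were lower by more than 2-fold.

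**Figure D2:**
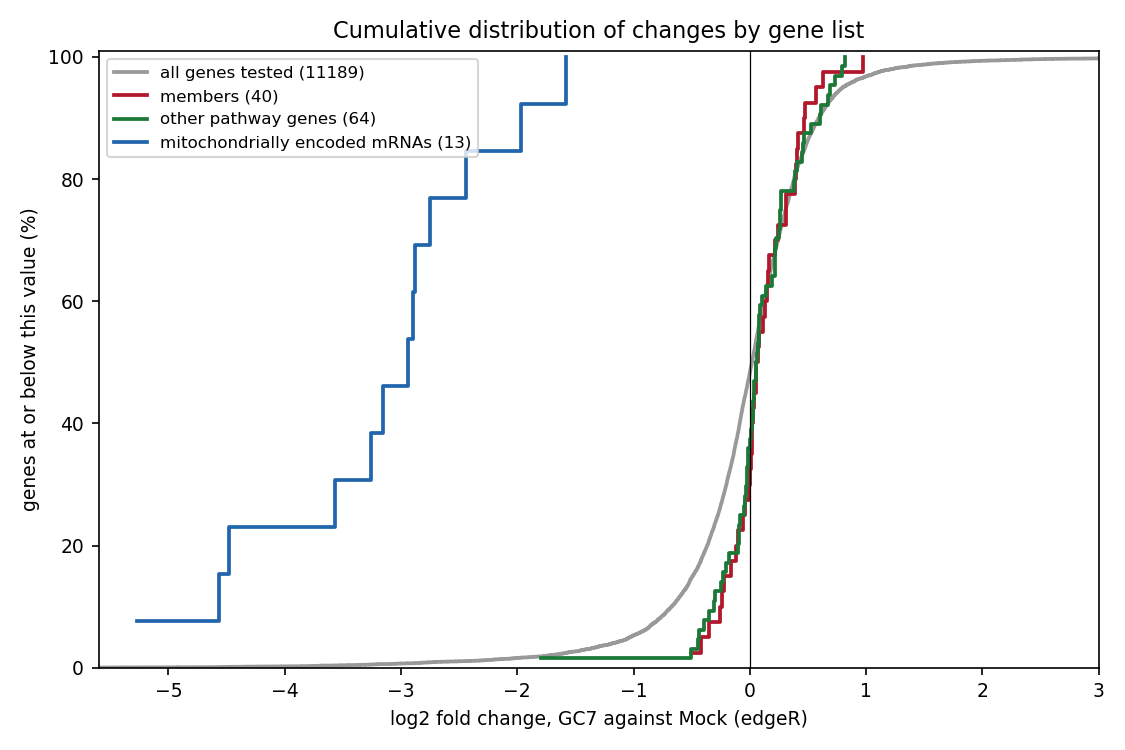
Cumulative share of genes (y axis, %) at or below each log2 fold change of GC7 against Mock (x axis) for all 11189 genes tested, the 40 members, 64 other genes of the pathway and the 13 mitochondrially encoded mRNAs. The members run from -0.50 to 0.98, and the mitochondrially encoded mRNAs all lie at -1.58 or below.

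Among the 4 transcription genes, Polrmt and Tefm rose (50%, beside 23.0% of all genes tested) and neither Tfam nor Tfb2m passed the test. Polrmt (ENSMUSG00000020329, chr10:79736123-79746581, minus strand), which encodes the mitochondrial RNA polymerase, was measured at 21.3, 24.9, 22.2 and 23.1 CPM in Mock 1 to 4 and at 30.99, 29.3, 24.98 and 34.3 CPM in GC7 1 to 4. Every GC7 value was above every Mock value, but GC7 3 exceeded the highest Mock library, Mock 2, by little. The mean rose from 22.9 ± 1.51 to 29.9 ± 3.89 CPM (SD, n = 4), a log2 fold change of 0.39 (95% interval 0.18 to 0.60, edgeR FDR = 0.00414). Leaving out Mock 1, Mock 3, Mock 4, GC7 1 or GC7 4 took its FDR above the threshold, to at most 0.0178, and without both Mock 2 and GC7 3 the log2 fold change was 0.51.

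Tefm (ENSMUSG00000046909, chr11:80136678-80142175, minus strand) encodes the factor that lets the polymerase move along its template without stopping. Its values were 5.66, 5.75, 4.40 and 5.23 CPM in the Mock libraries and 7.55, 7.20, 6.55 and 7.64 CPM in the GC7 libraries, with no overlap. This is a log2 fold change of 0.46 (95% interval 0.20 to 0.72, edgeR FDR = 0.00561), or 1.38-fold. This call too was lost without Mock 3, Mock 4, GC7 1, GC7 2 or GC7 4, with log2 fold changes of 0.38 to 0.51 and an edgeR FDR of at most 0.0207 over all libraries left out in turn.

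Tfam (ENSMUSG00000003923, chr10:71225464-71238280, minus strand) encodes the protein that packs mitochondrial DNA and bends it at the promoters. In Mock it was at 48.7, 59.8, 55.95 and 52.7 CPM, and in GC7 at 50.1, 53.8, 55.2 and 52.1 CPM, so that all GC7 values lay inside the Mock range. The log2 fold change was -0.04 (95% interval -0.20 to 0.12, edgeR FDR = 0.646), and its sign turned when libraries were scaled by their totals (0.05) or when Mock 2 was left out (0.01). Tfb2m (ENSMUSG00000026492, chr1:179528055-179546267, minus strand), whose product opens the DNA at the start of transcription, was at 20.96, 20.002, 23.7 and 22.3 CPM in Mock and 25.6, 23.3, 23.8 and 22.4 CPM in GC7. The Tfb2m groups overlapped, and the log2 fold change of 0.13 (95% interval -0.04 to 0.30) did not pass the test (edgeR FDR = 0.182). A pseudogene, Gm1818, shares 1187 bases with Tfb2m at 99.3% identity and reached at most 67 counts, beside at least 411 for Tfb2m.

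The mTERF family binds mitochondrial DNA and RNA, and 1 of its 4 members passed the test (25%, beside 46.6% of all genes tested). Mterf3 (ENSMUSG00000021519, chr13:66906968-66933088, minus strand), which is needed for the large subunit of the mitochondrial ribosome, was at 13.7, 13.2, 13.2 and 13.6 CPM in Mock and 16.9, 18.7, 16.9 and 19.1 CPM in GC7. The Mock values lay close together and all GC7 values were above them. Its log2 fold change was 0.41 (95% interval 0.24 to 0.58, edgeR FDR = 0.000661). Mterf1a, a copy of the gene for the terminator that binds after the ribosomal RNA genes, was at 4.93 to 6.72 CPM in Mock and 7.16 to 8.47 CPM in GC7, with a log2 fold change of 0.41 (edgeR FDR = 0.0128). Its near-identical copy Mterf1b (98.6% over 1316 bases) had a log2 fold change of 0.45 (edgeR FDR = 0.00561), and reads could be split between the 2 genes. Mterf2 was at 0.31 (edgeR FDR = 0.0679) and Mterf4, the partner of the NSUN4 methyltransferase, at -0.01 (edgeR FDR = 0.953).

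None of the 3 member genes for cutting the precursors at the tRNAs, Hsd17b10, Trmt10c and Elac2, passed the test, as 46.6% of all genes tested did. The nuclease subunit of RNase P, Prorp, is not a member and is given with the other lists. Hsd17b10, a subunit of mitochondrial RNase P that is also a dehydrogenase, was at 45.9 to 56.3 CPM in Mock and 48.3 to 59.5 CPM in GC7, with a log2 fold change of 0.04 (95% interval -0.16 to 0.23). Trmt10c, the methyltransferase subunit of the same enzyme, had a log2 fold change of 0.02 (95% interval -0.18 to 0.21). Elac2, which trims the 3′ ends of tRNAs, was at 42.4, 40.8, 38.3 and 40.5 CPM in Mock and 49.6, 48.5, 37.7 and 51.5 CPM in GC7. Among the Elac2 values, GC7 1, 2 and 4 were above every Mock library and GC7 3 below all of them. Over all libraries the log2 fold change was 0.21 (edgeR FDR = 0.0627), and without GC7 3 it was 0.30 (edgeR FDR = 0.00172), past the threshold.

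Of the 5 tested genes for RNA stability and decay, only Supv3l1 passed (20%, beside 46.6% of all genes tested). Supv3l1 (ENSMUSG00000020079, chr10:62429209-62449738, minus strand) encodes the helicase of the mitochondrial degradosome, which unwinds RNA for the nuclease encoded by Pnpt1. It was at 21.98, 21.5, 20.1 and 19.99 CPM in Mock and at 33.2, 31.6, 27.5 and 31.7 CPM in GC7. The lowest GC7 library, GC7 3, was still above the highest Mock library. The mean rose from 20.9 ± 1.003 to 30.998 ± 2.46 CPM (SD, n = 4), with a log2 fold change of 0.57 (95% interval 0.40 to 0.74, edgeR FDR = 5.15e-05). Pnpt1 itself was at 33.2 to 39.4 CPM in Mock and 36.6 to 40.5 CPM in GC7, a log2 fold change of 0.07 (95% interval -0.09 to 0.23, edgeR FDR = 0.462). The difference between the changes of Supv3l1 and Pnpt1 was not tested.

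Lrpprc (ENSMUSG00000024120, chr17:84705247-84790789, minus strand) encodes the protein that, with SLIRP, holds mitochondrial mRNAs stable and lets them be polyadenylated. Its levels were 77.6, 69.2, 74.8 and 72.9 CPM in Mock and 85.1, 82.3, 64.1 and 74.03 CPM in GC7. The GC7 values spread over a wider range that held all Mock values, from GC7 3 at the bottom to GC7 1 at the top. The log2 fold change was 0.05 (95% interval -0.13 to 0.24, edgeR FDR = 0.605), and it was -0.01 without GC7 1. Slirp did not pass the filter, at 2.92 to 3.14 CPM in Mock and 2.13 to 3.22 CPM in GC7, and 93.9% of its exon length is overlapped on the other strand by Snw1. The strand setting of the counting is not given in the sources used here, so the level of Slirp is uncertain. Mtpap, the poly(A) polymerase, had a log2 fold change of 0.24 (edgeR FDR = 0.0118) with every GC7 library above every Mock library. Rexo2, which degrades the shortest RNA fragments, had one of -0.10 (edgeR FDR = 0.212).

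**Figure D3:**
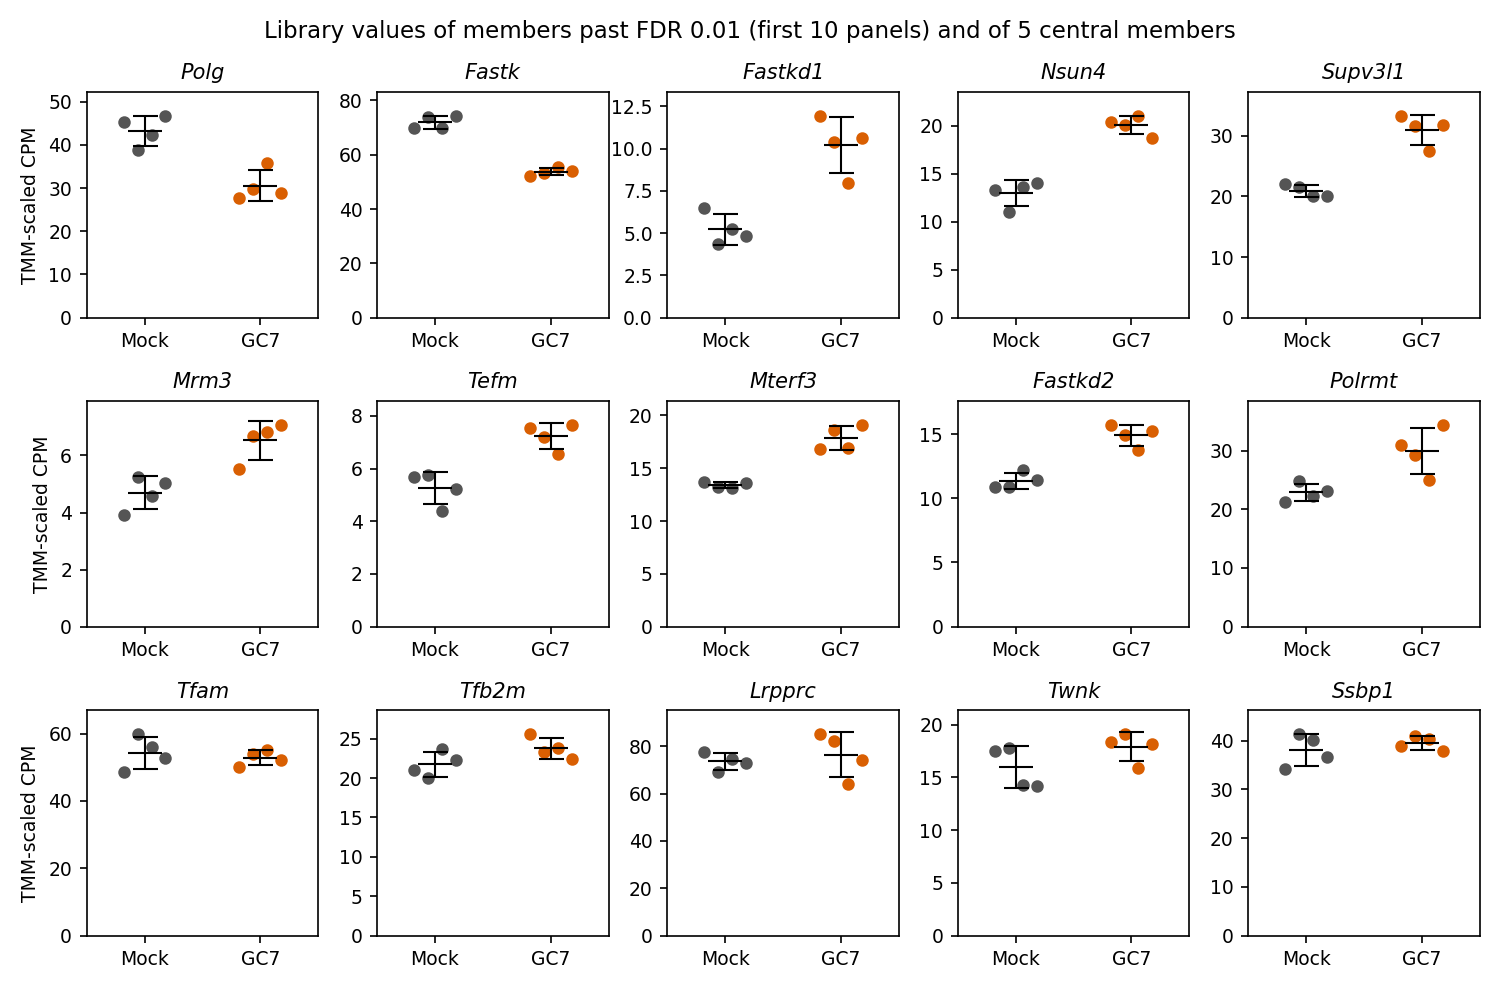
TMM-scaled CPM (y axis, from 0) in each of 4 Mock and 4 GC7 libraries for the 10 members that passed the test and for Tfam, Tfb2m, Lrpprc, Twnk and Ssbp1, with the mean and SD in black. The groups do not overlap in the first 10 panels, and they overlap in the last 5.

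The FASTK family, RNA-binding proteins that act on particular mitochondrial RNAs, held calls in both directions. Of its 5 tested genes, 20% fell and 40% rose, beside 23.5% and 23.0% of all genes tested. Fastkd1 (ENSMUSG00000027086, chr2:69686815-69713516, minus strand) showed the largest change of the 40 members. It was at 6.48, 4.36, 5.24 and 4.83 CPM in Mock and 11.9, 10.4, 7.94 and 10.6 CPM in GC7, from 97 to 256 counts a library. GC7 3 was the lowest of its group and still above all Mock libraries. The mean went from 5.23 ± 0.908 to 10.2 ± 1.66 CPM (SD, n = 4), 1.97-fold, with a log2 fold change of 0.98 (95% interval 0.64 to 1.31, edgeR FDR = 0.000153).

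Fastk (ENSMUSG00000028959, chr5:24438440-24445287, minus strand), the founding gene of the family, whose mitochondrial form is needed for mt-Nd6 mRNA, moved the other way. Its values were 69.9, 73.9, 70.002 and 74.2 CPM in Mock and 52.2, 53.4, 55.6 and 54.1 CPM in GC7. The spread within each group was small and the groups were well apart. The mean fell from 72.01 ± 2.38 to 53.8 ± 1.39 CPM (SD, n = 4), a log2 fold change of -0.42 (95% interval -0.54 to -0.30, edgeR FDR = 4.83e-05). Exons of Slc4a2 on the other strand cover 26.1% of the exon length of Fastk, and Slc4a2 had a log2 fold change of -0.37 (edgeR FDR = 0.000686), and the part of shared reads in the Fastk values was not tested.

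Fastkd2 (ENSMUSG00000025962, chr1:63730614-63754655, plus strand), which acts on the large ribosomal RNA of mitochondria, was at 10.9, 10.9, 12.2 and 11.4 CPM in Mock and 15.7, 14.9, 13.8 and 15.2 CPM in GC7, without overlap. Its log2 fold change was 0.39 (95% interval 0.21 to 0.58, edgeR FDR = 0.00155). Fastkd3 differed by 0.00 on the log2 scale (95% interval -0.19 to 0.20), and its sign changed with the setting. Tbrg4, also known as Fastkd4, was at 70.2 to 78.6 CPM in Mock and 69.3 to 90.8 CPM in GC7 with a log2 fold change of 0.15 (edgeR FDR = 0.136), which became 0.23 (edgeR FDR = 0.00674) without GC7 3. Fastkd5, at 0.765 to 1.95 CPM in Mock and 1.31 to 2.04 CPM in GC7, did not pass the filter, and 65.2% of its exon length is shared with Ubox5 on the same strand.

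Enzymes that modify mitochondrial tRNAs and ribosomal RNAs rose in 2 of 8 cases (25%, beside 23.0% of all genes tested). Nsun4 (ENSMUSG00000028706, chr4:116032842-116053876, minus strand) encodes a methyltransferase of the small ribosomal RNA that also works with MTERF4 in ribosome assembly. It was at 13.3, 10.99, 13.6 and 14.1 CPM in Mock and 20.4, 20.1, 20.98 and 18.7 CPM in GC7, and all 4 GC7 libraries were above all Mock libraries. Nsun4 rose by a log2 fold change of 0.63 (95% interval 0.43 to 0.83, edgeR FDR = 8.92e-05), or 1.54-fold. Mrm3 (ENSMUSG00000038046, chr11:76243715-76250619, plus strand), a methyltransferase of the large ribosomal RNA, was at 3.93, 5.24, 4.59 and 5.03 CPM in Mock and 5.52, 6.70, 6.83 and 7.06 CPM in GC7. The Mrm3 groups did not overlap, but GC7 1 was close to Mock 2. For Mrm3 the log2 fold change was 0.47 (95% interval 0.18 to 0.76, edgeR FDR = 0.00851), and its call held only when Mock 2 or GC7 1 was the library left out, the FDR otherwise reaching at most 0.0318.

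The other enzymes for ribosomal RNA were Mrm1 and Mrm2, with log2 fold changes of -0.24 (edgeR FDR = 0.0205) and 0.08 (edgeR FDR = 0.598), and Tfb1m, a dimethyltransferase of the small ribosomal RNA, with 0.31 (edgeR FDR = 0.0132). All GC7 libraries were below all Mock libraries for Mrm1 and above them for Tfb1m, and Tfb1m passed the threshold without Mock 2 (0.37, edgeR FDR = 0.00350). Mto1 and Gtpbp3 work together on the wobble base of tRNAs, and Trmu adds sulphur to it. Their log2 fold changes were 0.14, 0.03 and -0.12, and none passed the test.

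No gene for a mitochondrial translation factor passed the test, as 46.6% of all genes tested did, and 4 of the 6 lay below 0. Tufm, the elongation factor that brings tRNAs to the ribosome, was at 90.98, 111, 90.5 and 93.6 CPM in Mock and 83.9, 82.3, 72.05 and 84.5 CPM in GC7. All GC7 values were below the Mock values, of which Mock 2 was far above the others. The log2 fold change was -0.26 (95% interval -0.43 to -0.08, edgeR FDR = 0.0148), and DESeq2 put it past the threshold (FDR = 0.00679). A processed pseudogene, Gm9755, matches Tufm over 1067 bases at 99.8% identity and held at most 94 counts, beside at least 1298 for Tufm. Tsfm, which reloads that factor, was at -0.16, and the initiation factors Mtif2 and Mtif3 were at 0.01 and -0.22 on the log2 scale. Gfm1 moves the ribosome along the mRNA and Gfm2 splits it for reuse, and their log2 fold changes were -0.06 and 0.11.

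Of the 5 genes for copying mitochondrial DNA, Polg fell (20%, beside 23.5% of all genes tested) and the other 4 did not pass the test. Polg (ENSMUSG00000039176, chr7:79446231-79466362, minus strand) encodes the catalytic subunit of the mitochondrial DNA polymerase. It was at 45.4, 38.7, 42.2 and 46.7 CPM in Mock and 27.7, 29.8, 35.7 and 28.9 CPM in GC7. GC7 3 was the highest of its group and below the lowest Mock library, Mock 2. The mean fell from 43.2 ± 3.54 to 30.6 ± 3.57 CPM (SD, n = 4), a log2 fold change of -0.50 (95% interval -0.70 to -0.30, edgeR FDR = 0.000482), or -29.4%. The change was -0.63 on the log2 scale without Mock 2 and GC7 3.

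Polg2 encodes the accessory subunit that holds the polymerase on DNA, and was at 12.95, 13.8, 11.8 and 11.3 CPM in Mock and 10.1, 8.60, 11.4 and 9.14 CPM in GC7. GC7 3 was above Mock 4, so the groups overlapped, and the log2 fold change of -0.35 (95% interval -0.59 to -0.11) missed the threshold (edgeR FDR = 0.0161). Without GC7 3 it was -0.43 and passed (edgeR FDR = 0.00519). Parts of Polg2 and Tfb1m match many other genes at 90% identity or more over at least 200 bases, so some of their reads may have more than 1 source.

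Twnk (ENSMUSG00000025209, chr19:45005663-45012762, plus strand), the replicative helicase, was at 17.5, 17.8, 14.3 and 14.2 CPM in Mock and 18.4, 19.1, 15.9 and 18.2 CPM in GC7. Mock 1 and 2 lay among the GC7 values and Mock 3 and 4 below them, and the log2 fold change was 0.17 (95% interval -0.05 to 0.38, edgeR FDR = 0.175). Ssbp1 (ENSMUSG00000029911, chr6:40471352-40484700, plus strand), whose product coats the single strand, was at 34.3, 41.3, 40.1 and 36.6 CPM in Mock and 38.9, 40.9, 40.4 and 37.8 CPM in GC7. The GC7 values of Ssbp1 fell within the Mock range, with a log2 fold change of 0.05 (95% interval -0.11 to 0.21, edgeR FDR = 0.564). Mgme1, a nuclease that trims replication ends, had a log2 fold change of 0.02 (95% interval -0.15 to 0.19).

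Per length, the members differed among themselves far more than between the groups. The length is that of all annotated exons of a gene, joined over its transcripts, and can exceed that of the mRNA present. Differences and ranks between genes therefore depend in part on the annotation. In Mock, mean levels per kb of exon ran from 45.4 CPM per kb for Tufm and 38.6 for Hsd17b10 to 0.893 for Fastkd1 and 0.486 for Fastkd5. The 4 highest members were Tufm, Hsd17b10, Rexo2 and Tbrg4 in both groups, with Tufm first in Mock and Hsd17b10 first in GC7 (39.6 beside 37.97 CPM per kb). Tfam was at 12.2 CPM per kb in Mock, above its partners Tfb2m (7.75), Polrmt (4.88) and Tefm (3.35). In GC7 the same order held, with 11.9, 8.47, 6.38 and 4.61 CPM per kb. Polg, the member with the longest exon sum (10742 bases), went from rank 23 of 42 in Mock to rank 32 in GC7, and Supv3l1 from rank 16 to rank 9.

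**Figure D4:**
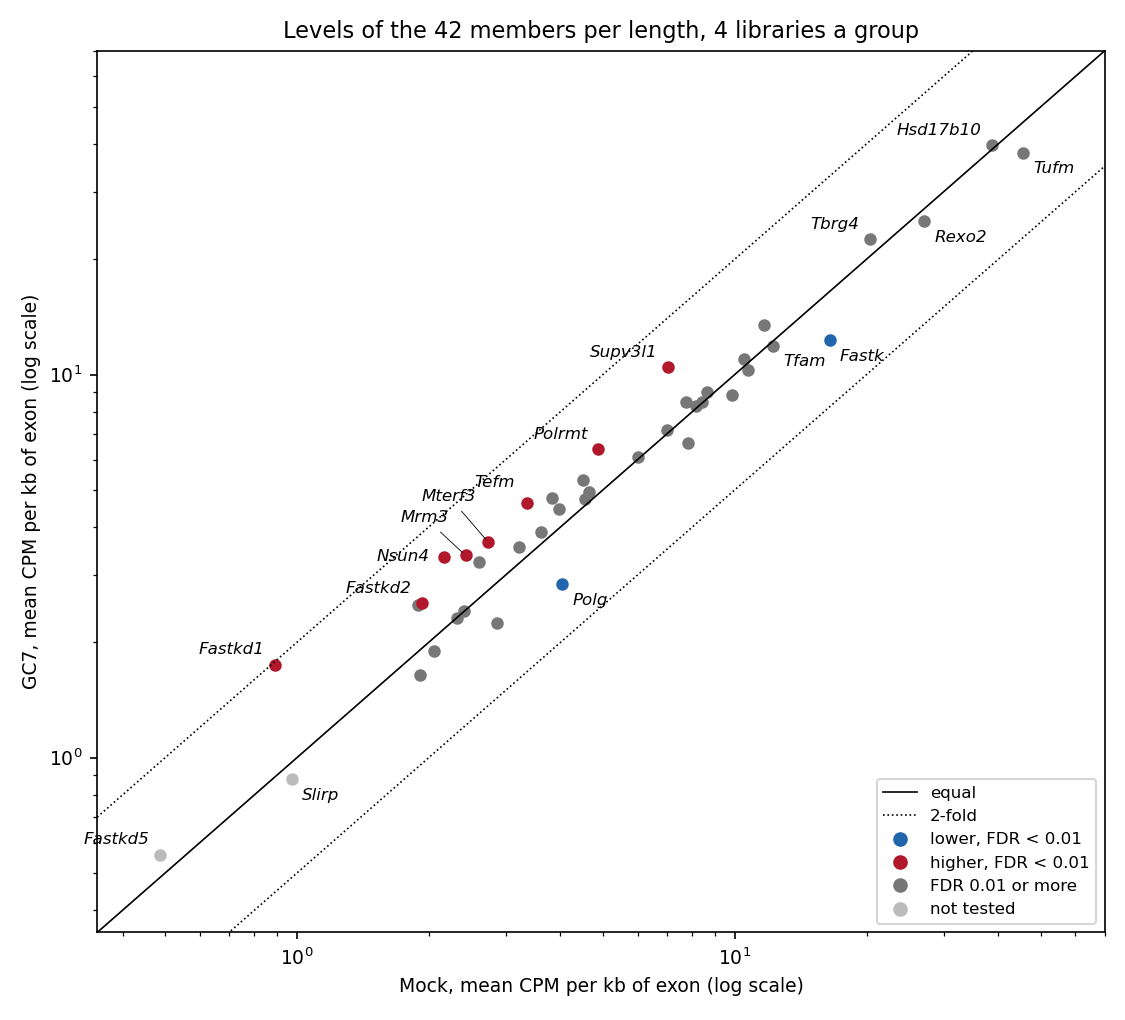
Mean level per kb of exon (CPM per kb, log axes) in 4 Mock (x axis) and 4 GC7 libraries (y axis) for the 42 members, with the line of equal levels and dotted lines at 2-fold. Polg and Fastk lie below the line, the 8 higher members above it, and Fastkd1 is closest to 2-fold.

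A further 66 nuclear genes of the same pathway were taken as a list of neighbouring functions, and 64 were tested. Of these 9 fell and 14 rose, 14.1% and 21.9% beside 23.5% and 23.0% of all genes tested, and with libraries scaled by their totals the split was 4 lower to 21 higher. The same scaling moved the split over all genes from 2635 lower and 2579 higher to 2058 lower and 3346 higher. The median log2 fold change of the 64 genes was 0.06.

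Among 15 genes for mitochondrial DNA replication and nucleotide supply, 2 fell and 3 rose (13.3% and 20%, beside 23.5% and 23.0% of all genes tested). Endog (ENSMUSG00000015337, chr2:30171493-30174069, plus strand), a nuclease of the space between the mitochondrial membranes, was the only one of the 64 past 2-fold. It was at 17.7, 19.5, 14.3 and 16.5 CPM in Mock and 5.47, 5.57, 3.50 and 4.94 CPM in GC7, with a log2 fold change of -1.80 (95% interval -2.11 to -1.48, edgeR FDR = 6.36e-07). Exons of Spout1 on the other strand cover 35.7% of the exon length of Endog, and Spout1 had a log2 fold change of 0.03. The other calls, named after their values were seen, were Dna2, a helicase and nuclease, at -0.44, the topoisomerase gene Top1mt at 0.67, the pyrimidine nucleotide carrier Slc25a36 at 0.53 and the nucleoid gene Atad3a at 0.45.

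In the other lists, also named after their values were seen, 4 of 12 genes for RNA granules, end processing and decay rose and 1 fell. These are 33.3% and 8.33%, beside 23.0% and 23.5% of all genes tested. The extremes were Alkbh1, which modifies mitochondrial tRNA, at 0.73 and Grsf1, an RNA granule protein, at -0.30, and the nuclease subunit of RNase P, Prorp, was at 0.22 (edgeR FDR = 0.0314) and passed without GC7 3 (edgeR FDR = 0.00909). Of 17 tested genes for tRNA and ribosomal RNA modification 4 rose and 1 fell (23.5% and 5.88%, beside 23.0% and 23.5% of all genes tested). They ran from Qrsl1, a subunit of the enzyme that forms glutaminyl-tRNA, at 0.79, and Trub2, a pseudouridine synthase, at 0.69, to Osgepl1 at -0.39. Among 12 genes for translation termination, recycling and ribosome assembly, 1 rose and 1 fell (8.33% each, beside 23.0% and 23.5% of all genes tested). Oxa1l, which inserts new proteins into the inner membrane, rose (0.27, edgeR FDR = 0.00346) and the release factor gene Mtrf1l fell (-0.35, edgeR FDR = 0.00761). Leaving out 1 library ended the call of Oxa1l for Mock 1, Mock 3, GC7 1 and GC7 4 (edgeR FDR at most 0.0150), and the calls of Mtrf1l and Osgepl1 for each library except Mock 3 and GC7 3, and except Mock 2 and GC7 3, in that order (edgeR FDR at most 0.0288 and 0.0277).

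Nuclear regulators of mitochondrial genes changed in both directions, with 4 of 8 tested genes lower and 2 higher (50% and 25%, beside 23.5% and 23.0% of all genes tested). Gabpa, the DNA-binding subunit of the GA-binding protein, was at 84.9, 71.04, 84.6 and 80.7 CPM in Mock and 62.4, 61.5, 58.1 and 55.6 CPM in GC7, without overlap, a log2 fold change of -0.44 (95% interval -0.59 to -0.28, edgeR FDR = 0.000243). Its 2 partner subunits moved apart. Gabpb1 was at 44.9, 45.04, 45.3 and 43.7 CPM in Mock and 63.6, 67.5, 71.3 and 70.9 CPM in GC7, with a log2 fold change of 0.61 (edgeR FDR = 3.68e-06). Gabpb2 was at 174, 117, 163 and 171 CPM in Mock and 115, 121, 104 and 102 CPM in GC7, with a log2 fold change of -0.50 (edgeR FDR = 0.00214), and the low value of Mock 2 put it inside the GC7 range.

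Nrf1, a regulator of respiratory genes, was at 53.04, 60.98, 51.4 and 54.3 CPM in Mock and 43.3, 44.5, 44.2 and 45.6 CPM in GC7, a log2 fold change of -0.31 (edgeR FDR = 0.00190). The coactivator gene Pprc1 was at 49.8, 34.2, 38.4 and 47.6 CPM in Mock and 85.4, 84.4, 55.4 and 72.95 CPM in GC7, and rose by 0.81 on the log2 scale (edgeR FDR = 0.000418). Both genes had no overlap between the groups. Yy1 fell by 0.20 on the log2 scale (edgeR FDR = 0.00554), a call that held only when Mock 2 or GC7 3 was the library left out (edgeR FDR otherwise at most 0.0205). With libraries scaled by their totals, Yy1, Gabpb2, Dna2, Osgepl1 and Mtrf1l kept their direction and missed the threshold. Ppargc1b, related to Pprc1, was at 0.45 (edgeR FDR = 0.0388) and Esrra at 0.05 (edgeR FDR = 0.496). Ppargc1a, the best known coactivator of this family, was at 0.10 CPM or less in all 8 libraries and was not tested.

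**Figure D5:**
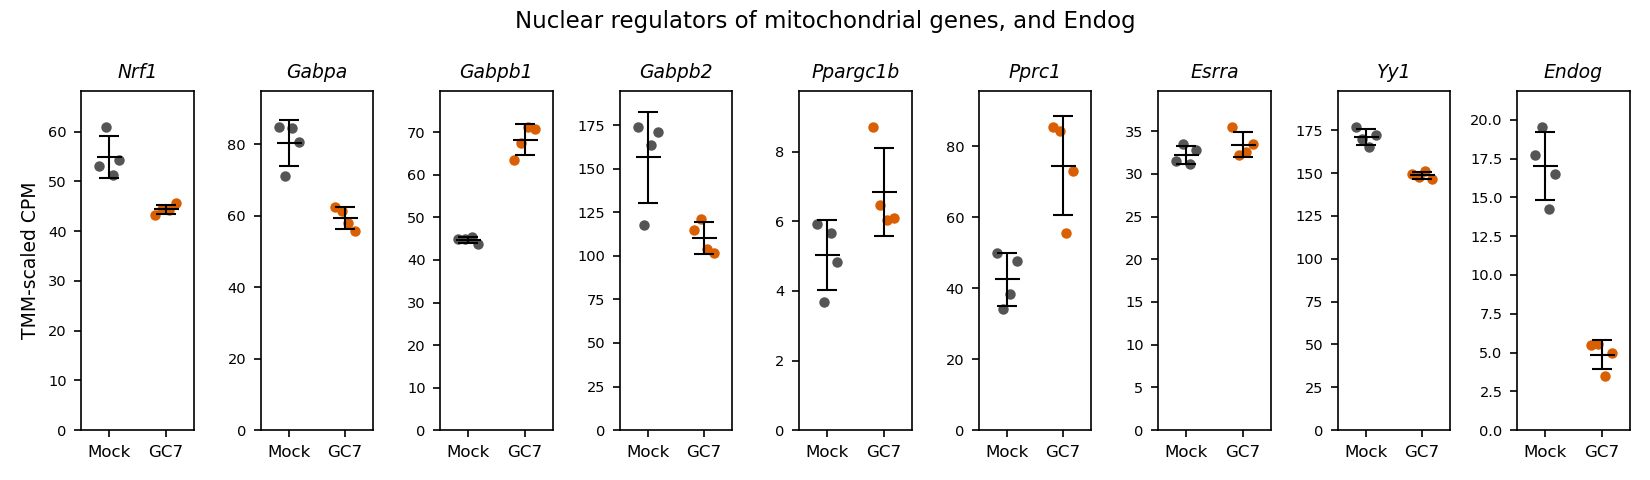
TMM-scaled CPM (y axes, from 0) in 4 Mock and 4 GC7 libraries for the 8 tested nuclear regulators and for Endog, with the mean and SD in black. Nrf1, Gabpa, Yy1 and Endog are lower in all GC7 libraries, Gabpb1, Ppargc1b and Pprc1 are higher in all of them, and Gabpb2 and Esrra overlap.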

How the data were processed

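RNA of 4 Mock and 4 GC7 libraries was sequenced as paired ends. The values the authors deposited are raw counts for each Ensembl 96 gene, in a table for every library, neither normalised nor pooled. Cutadapt (version 2.3) trimmed the reads, STAR (version 2.7.1a) placed them on GRCm38, and featureCounts did the counting. Strand and multi-mapping settings are not given in the sources used here. Labels gave the groups.

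The methods of the study name edgeR. Here, genes above 3 CPM in at least 4 libraries (11189) were fitted with edgeR (version 4.0.16, R version 4.3.3), with TMM scaling and a group term, and tested with the quasi-likelihood F test, adjusting p-values by the Benjamini-Hochberg method. This minimum equals 52.6 to 75.9 counts, and intervals and limits cover replicate spread, not missing molecular identifiers. The fits were tested on simulated data in which 100 genes changed by 0.5 and 100 by 1 on the log2 scale, far fewer than were called here. There edgeR recovered 71 of the 100 genes at 0.5 and 99 of the 100 at 1, with 1 false call. Overlapping exons and close copies (BLAST version 2.17.0, at least 200 bases at 90% identity or more) were sought in GENCODE M21. Promoter windows came from RefSeq (GRCm38.p6).

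Library values are given for up to 8 lower and 8 higher members with the largest changes past the threshold and for Polrmt, Tfam, Tfb2m, Lrpprc, Twnk, Polg and Ssbp1. From other lists, nuclear regulators and genes past 2-fold are named. Library values of Elac2, Tufm and Polg2 and other names were chosen after values were seen. A B cell marker of the design is not reported here. The members and lists were chosen with earlier results of these data known. Alternatives were a replicate block, RLE factors, scaling by library totals or without the genes of the mitochondrial genome, no filter, filterByExpr, DESeq2 (version 1.42.0), limma-voom (limma version 3.58.1), other thresholds and each library left out. Leaving out Mock 2 with GC7 3, and promoter windows without the bases after the start, were added after seeing the data. Figures and tables used Python (version 3.11.15), pandas (version 2.3.3) and matplotlib (version 3.10.9).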

Additional observations from a re-analysis of the deposited data

Results flagged for a closer look

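In 134 groups of 4 libraries (42 members, 24 pathway genes and the mitochondrially encoded share, in each condition), 9 had a library far from the other 3 at the 95% level of Dixon's ratio, which divides the gap between the extreme library and its neighbour by the range of the group. Chance gives about 1 in 20, or 6.7 here. Mock 2 was the distant library in 3 of the 9 groups, GC7 1 and GC7 3 in 2 each, and Mock 3 and Mock 4 in 1 each.

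Hsd17b10 was high in GC7 3 (59.5 CPM, ratio 0.900), and Mto1 was high in GC7 1 (15.9 CPM, ratio 0.863). In Mock 2, Gtpbp3 (32.2 CPM, ratio 0.849) and Tufm (111 CPM, ratio 0.850) were high and Alkbh1 was low (25.6 CPM, ratio 0.835). Tsfm was low in Mock 3 (24.6 CPM, ratio 0.862), and Trmt5, a tRNA methyltransferase gene, was low in Mock 4 (11.6 CPM, ratio 0.899). Slc25a36 was high in GC7 3 (202 CPM, ratio 0.940), and its log2 fold change was 0.424 without that library. Ppargc1b was high in GC7 1 (8.72 CPM, ratio 0.841). The causes were not tested.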

How the results depend on the processing

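Polg and Fastk stayed lower and Fastkd1, Fastkd2, Mterf3, Nsun4 and Supv3l1 stayed higher, at an FDR under 0.01, under all 17 alternative fits. DESeq2 called 4 members lower, an FDR under 0.05 gave 5 lower, and a 2-fold minimum left 0 lower and 0 higher. Leaving out 1 library gave 2 to 3 lower and 5 to 9 higher members. In these fits 2303 to 2845 of all 11189 genes tested were lower and 2096 to 2859 higher, beside 2635 and 2579 in the main fit. With library totals, 4 pathway genes were lower. The median log2 fold change of the members was 0.15 with library totals, where that of all genes was 0.11, it was 0.0877 without both Mock 2 and GC7 3, and it ran from 0.0495 to 0.0933 with 1 library left out. The E-box count fell to 1 member with the bases before the start alone. Over 1088 alternative values of single genes, 981 kept direction and side of the threshold, 47 fell behind it, 23 passed it and 37 changed sign, all in members that did not pass the test. The cause of these changes was not tested.

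Signs changed with library totals for Tfam (0.0543), Mterf4 (0.0882) and Gfm1 (0.0359), and without both Mock 2 and GC7 3 for Trmt10c (-0.0177), Pnpt1 (-0.00193), Fastkd3 (-0.00975) and Mtif2 (-0.0186). Fastkd3 was at -0.00477 with RLE factors, -0.00295 with scaling without mitochondrially encoded genes, -0.00202 with filterByExpr and -0.00438 with DESeq2, and Mtif2 at -0.000439 with RLE factors and -0.000246 with DESeq2. With 1 library left out, log2 fold changes ran over -0.0922 to 0.0118 for Tfam, -0.0263 to 0.0167 for Mterf4, -0.0170 to 0.0914 for Trmt10c, -0.0411 to 0.0979 for Hsd17b10, -0.00535 to 0.128 for Lrpprc, -0.0495 to 0.0541 for Fastkd3, -0.0121 to 0.108 for Gtpbp3, -0.0115 to 0.0419 for Mtif2, -0.104 to 0.00510 for Gfm1 and -0.0142 to 0.0648 for Mgme1.

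Deviations of same-numbered Mock and GC7 libraries from their group means correlated at 0.27, -0.12, 0.20 and -0.18 for numbers 1 to 4. The mean was 0.04, beside -0.02 for differently numbered pairs, and the same-numbered libraries share only a number. With the replicate number as a block, 2 members were lower and 8 higher, and 7 pathway genes were lower and 13 higher. The 13 include 12 of the 14 higher pathway calls of the main fit, and Mtrf1l, Oxa1l and Yy1 were among the calls lost. The 95% intervals of the members that did not pass the test lay within 2-fold, and smaller changes may be missed at this depth and number of libraries.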

Other observations

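For the 10 members that passed the test, the GC7 library nearest to the Mock mean on the log2 scale was GC7 3 in 7 cases, GC7 1 in 2 and GC7 4 in 1. Over the 5210 genes past the test with counts in every library, GC7 3 was nearest in 28.2%, GC7 2 in 24.8%, GC7 4 in 24.0% and GC7 1 in 23.0%. The 7 members were Polg, Fastk, Fastkd1, Supv3l1, Tefm, Fastkd2 and Polrmt, which fell or rose in the other GC7 libraries by more.

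Exons of 22 of the 42 members overlap those of another gene in the annotation, and for 6 of them, Mterf2, Mterf4, Slirp, Fastk, Fastkd5 and Mtif3, over 20% of the exon length is overlapped. A close match elsewhere in the transcriptome was found for 9 members.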
